A study of Mus musculus with 15 samples.

Results

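The genes described are the constitutive proteasome subunit genes of the mouse. They were chosen as the protein-coding genes whose symbol starts with *Psma, Psmb, Psmc, Psmd, Psme* or *Psmf* followed by a digit, without the immunoproteasome genes *Psmb8, Psmb9* and *Psmb10*. The rule found 43 genes among the 41388 genes of the deposited tables, of which 21474 are protein-coding, and it used no measured value. By role they comprise the alpha and beta rings of the 20S core particle, the ATPases, other base subunits, lid and assembly chaperones of the 19S regulatory particle, the activators and the inhibitor *Psmf1*. The rule also takes in *Psmc3ip*, a meiotic recombination factor named for its binding to *Psmc3*, which is not a proteasome subunit.

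The proteasome is the protease that degrades ubiquitin-tagged proteins in the cytosol and nucleus. Its core is a barrel of stacked rings in which outer alpha rings gate the entry and inner beta rings hold the catalytic sites, and the regulatory particle on top recognises, deubiquitinates, unfolds and threads in the substrate. In B cells and other antigen-presenting cells its products also feed MHC class I presentation, and lymphoid cells replace some of the constitutive catalytic subunits by immunoproteasome subunits.

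RNA from A20, a B-cell lymphoma line of BALB/c origin, was sequenced from wild-type parental cells and from 4 CRISPR/Cas9 clones. Clones E6.1 and E6.2 carry a mutation in exon 6 of *Foxp1*, which encodes a forkhead transcription factor, and clones E7.1 and E7.2 carry one in exon 7. Each line gave 3 libraries from different passages, 15 in all. Every mutant line is a single-cell clone, so its 3 libraries show the spread between passages and not between clones, and all 4 comparisons with parental cells share the same 3 parental libraries. These are bulk libraries, in which a lower level can come from fewer cells with the transcript or from less RNA per cell, and the 2 cannot be told apart.

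The libraries held 26328054 to 39181530 counts each (median 35586010). A floor of 3 counts corresponded to between 0.0751 and 0.118 CPM (counts scaled to library size), which covers counting error only. The targeted gene *Foxp1* measured 102, 166 and 147 CPM in parental cells, while E6.1 had 103, 99.5 and 109, E6.2 had 109, 104 and 105, E7.1 had 41.7, 64.2 and 64.3 and E7.2 had 37.1, 39.6 and 52.3. Its transcript fell in E7.1 (log2 fold change -1.29, adjusted p = 0.00688) and E7.2 (-1.69, adjusted p = 0.00116) by the quasi-likelihood test of edgeR, with Benjamini-Hochberg adjustment, and did not pass it in E6.1 (-0.41, adjusted p = 0.765) or E6.2 (-0.39, adjusted p = 0.417). A frameshift need not lower the transcript, so this level does not check the E6 labels. The B-cell markers *Cd79a, Cd79b, Cd22, Ms4a1, Ptprc* and *Blk* were expressed in every library, the lowest of these values being 29.6 CPM for *Blk*, and *Ms4a1* was lower in E6.2 than in parental cells (-0.91, adjusted p = 0.0227 from edgeR). The T-cell marker *Cd3e* had a count of 0 throughout, the myeloid marker *Lyz2* at most 0.0327 CPM and the stromal marker *Col1a1* at most 0.192. Of the 11 T-cell, myeloid and stromal markers, *Adgre1* alone passed 1 CPM, at up to 7.56.

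Several libraries stood apart from the others of their line for the proteasome genes. In E6.2 replicate 1, where the ribosomal-RNA-overlapping gene *Gm42418* took 10.3% of all counts, 22 of the 41 tested genes had their lowest value of the 15 libraries. The median log2 deviation of the 41 was -0.38 there, against -0.04 for all genes. In E7.1 replicate 1, 23 of the 41 had their highest value, and the median deviation of the 41 was 0.28 against -0.00. The share of all tested genes with an extreme value in these libraries was not computed, so the counts do not set the proteasome genes apart. Parental replicate 1 had *Gm42418* at 2.22% of counts and the lowest *Psmc2*, *Psmc4* and *Psmc5* of all libraries. E6.2 replicate 3 and E7.2 replicate 3 were high together for *Psmb1, Psmb6, Psmd4, Psmd8* and *Psme1*, and mitochondrial genes took 10.4% of counts in the latter. Whether these libraries' other properties have a part in the results was not tested, and some of the results that rest on them are given with and without them.

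**Figure D1:**
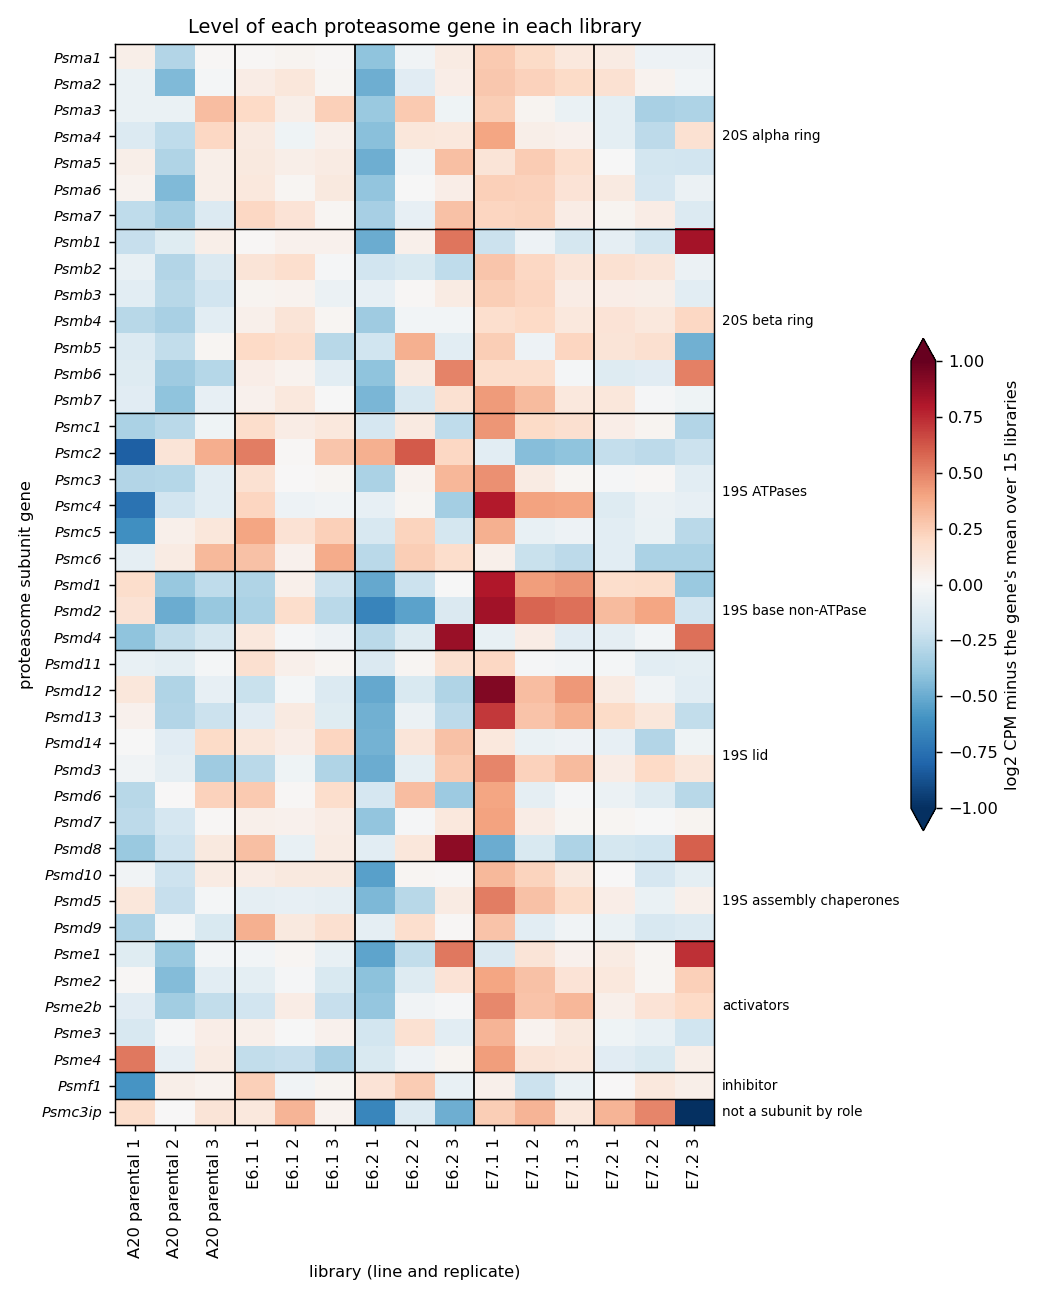
Each cell shows log2 CPM of 1 proteasome gene (vertical axis, grouped by role) in 1 library (horizontal axis, by line) minus that gene's mean over the 15 libraries, with values beyond 1 drawn at the end of the colour scale. E6.2 replicate 1 is low for most genes, with the lowest value of 22 of 41, and E7.1 replicate 1 is high for most, with the highest value of 23 of 41. The share of all tested genes with such extremes was not computed.

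Of the 43 genes, 41 were expressed above the filter on low counts. *Psma8*, the testis-specific alpha subunit, had 0 or 1 counts per library, and *Psmb11*, the beta subunit of thymic cortical epithelium, had 0 to 6. Neither was detectable as expressed at this depth, and neither was tested. The other genes together made up 0.535% to 0.847% of all counts. Per kilobase of exon, parental levels of the 41 genes ran from 4.04 ± 0.399 CPM (SD, n = 3) for *Psmd9*, an assembly chaperone of the base, to 282 ± 28.9 CPM for *Psmb1*, a structural beta subunit, with a median of 56.7 CPM per kilobase.

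The core genes had the highest medians by this measure, 117 CPM per kilobase for the beta ring and 111 for the alpha ring. Among the 7 tested alpha ring genes, parental levels per kilobase ran from 48.9 ± 3.44 CPM (*Psma7*) to 277 ± 42.4 CPM (*Psma2*), and among the 7 tested beta ring genes from 38.03 ± 3.18 CPM (*Psmb6*) to that of *Psmb1*. The 6 ATPases lay between 33.3 ± 2.503 CPM per kilobase (*Psmc3*) and 190.1 ± 27.7 (*Psmc6*), the 3 other base genes between 26.7 ± 5.58 (*Psmd1*) and 56.7 ± 14.1 (*Psmd2*), and the 8 lid genes between 14.3 ± 1.63 (*Psmd3*) and 145 ± 24.4 (*Psmd8*). Chaperones were lower, at 25.1 ± 2.96 CPM per kilobase at most (*Psmd5*). Of the activators, *Psme3*, the nuclear homolog of the interferon-induced activator subunits, was highest at 137 ± 10.9 CPM per kilobase, and the inhibitor *Psmf1* measured 5.76 ± 1.35. The length used counts every exon that the authors' counting assigned to a gene, so levels per kilobase are understated where the cells use a shorter transcript. That length is below the longest protein-coding transcript of GENCODE vM21 for *Psmb1* (1036 against 1970 bases) and *Psma2* (944 against 2911). It is above it for *Psmb6* (1872 against 798) and *Psma7* (3072 against 1157). The order of genes by this measure therefore depends on the annotation used.

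Levels varied little between lines. The ratio of the highest to the lowest line mean was between 1.11 (*Psmd11*) and 2.13 (*Psmd2*), with a median of 1.33 over the 41 genes, and it was under 1.5 for 32 of them. The coefficient of variation between libraries of a line was 13.4% at the median gene, from 5.81% for *Psmb3* to 25.4% for *Psmd8*. E7.1 held the highest line mean of 27 genes and parental cells that of 0, whereas parental cells held the lowest line mean of 17. These ratios, variations and counts were not computed over all tested genes, so they do not set the proteasome genes apart from other genes. The summed level of the 41 tested genes was 6472 ± 520 CPM (SD, n = 3) in parental cells, 7159 ± 132 for E6.1, 6739 ± 1078 for E6.2, 7801 ± 619 for E7.1 and 6924 ± 229 for E7.2, and was most variable in E6.2.

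Many of the proteasome genes varied together across the libraries. The median Pearson correlation of log2 CPM over the 820 pairs of genes was 0.44 over 15 libraries, against -0.00 over all pairs of tested genes. It was highest within the alpha ring (0.74 over 21 pairs) and lower within the ATPases (0.60), the beta ring (0.50) and the lid (0.37). Within the 3 other base genes it was 0.00, since *Psmd1* and *Psmd2* were alike (0.96) and *Psmd4* was like neither. *Psmb7* was the gene most like the others, with a median correlation of 0.68, and *Psmc2* (-0.14), *Psmd8* (-0.04) and *Psmf1* (-0.03) were the least like them. These values are descriptions, since the points share libraries, depth, lines and the libraries that stood apart.

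Each clone was then compared with parental cells to ask whether proteasome genes moved with the mutation of *Foxp1*. In 3 of the 4 clones, 0 of the 41 tested genes passed an adjusted p of 0.05 in edgeR's quasi-likelihood test. Over all 13904 tested genes the share called was 0.324% for E6.1 (0.0575% higher, 0.266% lower), 1.17% for E6.2 (0.165% and 1.01%) and 0.295% for E7.2 (0.0863% and 0.209%). In E7.1, *Psmc4* and *Psme2b* were higher, which is 2 of 41 (4.88%) against 1.22% of all genes, with 0.396% of all genes higher and 0.82% lower. At an unadjusted p under 0.05, E6.1 had 6 genes higher and 1 lower, beside 2.87% and 3.84% of all genes. E6.2 had 0 and 0, beside 6.26% and 6.79%. E7.1 had 18 higher (43.9%) and 0 lower, beside 9.94% and 10%, and E7.2 had 3 and 1, beside 5.98% and 7.34%. DESeq2's Wald test called 13 genes for E7.1 (31.7% against 8.32% of all genes), 1 for E7.2, which was *Psmb4* (2.44% against 1.83%), and 0 for either E6 clone. By edgeR's likelihood ratio test 6 genes were called for E7.1 (14.6% against 5.38%) and 0 for each of the others.

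**Figure D2:**
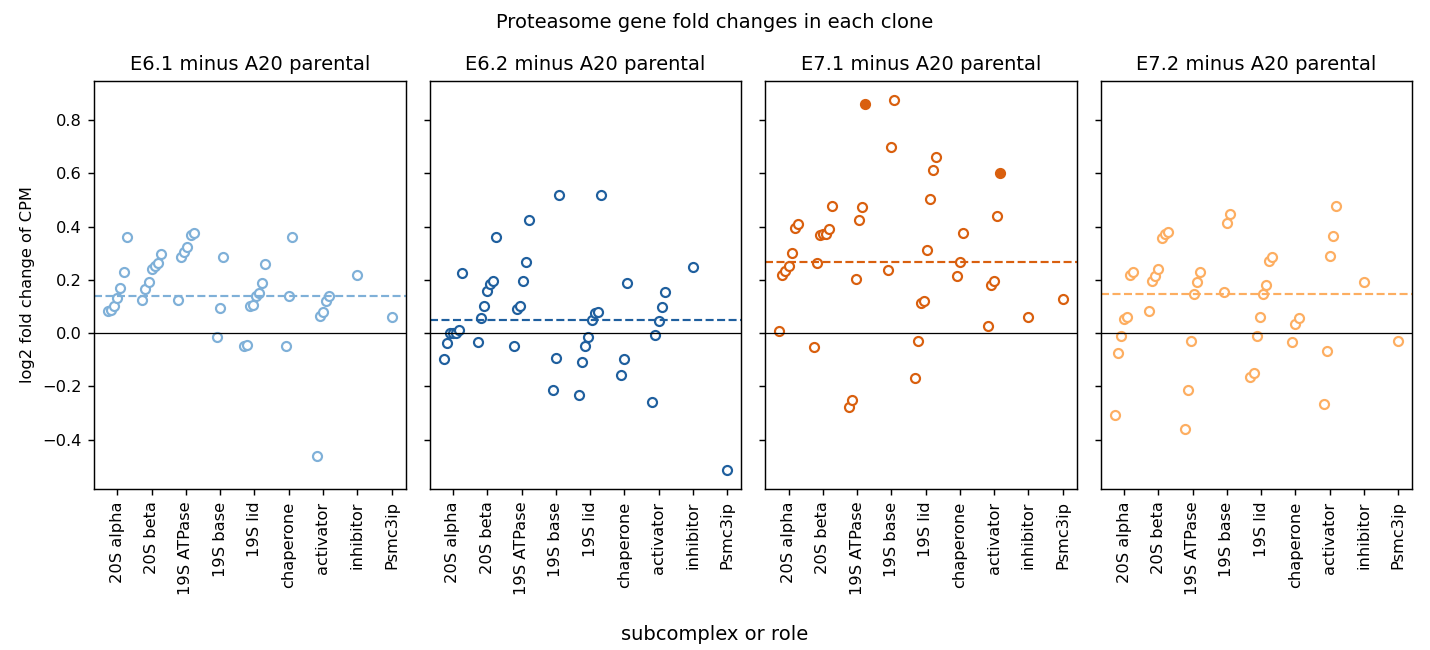
Log2 fold change of each of the 41 tested genes against parental cells (vertical axis) by subcomplex or role (horizontal axis), 1 panel per clone. Filled points passed an adjusted p of 0.05 in edgeR's quasi-likelihood test, and the dashed line is the median over the 41 genes, which is highest in E7.1 at 0.27.

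Fold changes were small, and most were positive in every clone with all libraries in the fit. The median log2 fold change of the 41 genes was 0.14 for E6.1, 0.05 for E6.2, 0.27 for E7.1 and 0.15 for E7.2, beside medians over all genes of -0.00, 0.06, -0.02 and 0.00. These medians moved when 1 library was left out. For E6.2 the sign turned, to -0.07 without its replicate 3 and -0.01 without its replicate 2, and the median was 0.16 without its replicate 1. For E6.1 it was 0.24 without parental replicate 3, and for E7.2 it was 0.08 without its replicate 1. The log2 fold change was above 0 for 36 genes in E6.1 (87.8%, against 49.9% of all genes), 25 in E6.2 (61.0% against 56.7%), 36 in E7.1 (87.8% against 47.8%) and 28 in E7.2 (68.3% against 50.4%). All 3 clone libraries lay above all 3 parental libraries for 16 genes in E6.1 (39% against 11.3% of all genes), 1 in E6.2 (2.44% against 6.13%), 24 in E7.1 (58.5% against 16.4%) and 9 in E7.2 (22.0% against 10.8%). They lay below for 1, 1, 0 and 2 genes, beside 11.2%, 8.61%, 15.6% and 13.3% of all genes. The genes are not independent of each other, and the 4 comparisons share the parental libraries.

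The calls in E7.1 depended on which libraries entered the fit. Only the E7.1 and parental libraries enter the means compared, and the others act through the scaling, the filter and the shared estimate of the spread. Without replicate 3 of both E6.2 and E7.2 the median log2 fold change in E7.1 was 0.29, beside 0.27 with all libraries. Without E6.2 replicate 3 and E7.2 replicate 3, the libraries that stood apart together, 17 of 41 genes (41.5%) were called in E7.1, beside 15.2% of 14284 tested genes, and 0 in each of the other clones. Those 17 were *Psma2, Psma7, Psmb2, Psmb3, Psmb4, Psmb7, Psmc1, Psmc3, Psmc4, Psmd1, Psmd2, Psmd3, Psmd5, Psmd12, Psmd13, Psme2* and *Psme2b*. Without any one of 10 other libraries (parental replicates 2 and 3, all replicates of E6.1 and E7.1, and E7.2 replicates 1 and 2) the count was 0. It was 1 without E6.2 replicate 2 and 3 without E6.2 replicate 1. It was 7 without parental replicate 1 (17.1% against 6.81% of all genes), 9 without E7.2 replicate 3 (22% against 4.25%) and 14 without E6.2 replicate 3 (34.1% against 7.05%), so the share over all genes rose in these fits too. The median log2 fold change in E7.1 stayed between 0.26 and 0.36 over these fits.

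The alpha ring genes, whose products form the gated entry of the core, all had positive estimates in E6.1 and E7.1. Their medians were 0.13 for E6.1, 0.00 for E6.2, 0.25 for E7.1 and 0.05 for E7.2, and 0 of 7 passed the test in any clone. *Psma7* measured 149, 140.2 and 161 CPM in the parental libraries, while E6.1 had 204, 195 and 179, E6.2 had 141, 168 and 217, E7.1 had 205, 206 and 187 and E7.2 had 181, 187 and 161. All 9 libraries of E6.1, E7.1 and E7.2 lay above the parental ones for *Psma7*, the lowest of them narrowly. Its log2 fold change was 0.41 in E7.1 (SE 0.15, adjusted p = 0.14 from edgeR) and 0.36 in E6.1 (adjusted p = 0.621). *Psma2*, the most abundant alpha gene per length, measured 279.8, 216 and 289 CPM in parental cells and 352, 344 and 334 in E7.1, without overlap, with a log2 fold change of 0.39 (adjusted p = 0.171). *Psma3* had its lowest estimate in E7.2, where its libraries measured 256, 218 and 220.1 CPM against 261, 260.1 and 338 (log2 fold change -0.31, adjusted p = 0.433).

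The beta ring holds the proteolytic subunits. Its 7 tested genes had median log2 fold changes of 0.24 for E6.1, 0.16 for E6.2, 0.37 for E7.1 and 0.24 for E7.2, and none passed edgeR's quasi-likelihood test in a clone. *Psmb4* measured 165, 160.4 and 187 CPM in the parental libraries, while E6.1 had 208, 219 and 203, E6.2 had 157, 197 and 197, E7.1 had 226, 231 and 216 and E7.2 had 220.1, 216 and 231. This structural subunit was above parental cells without overlap in every clone but E6.2, with log2 fold changes of 0.30, 0.39 and 0.38 (adjusted p = 0.601, 0.0962 and 0.24). *Psmb1*, also structural, measured 294, 275 and 554 CPM in E7.2 and 221, 322 and 452 in E6.2, in both cases highest in replicate 3, against 265, 287 and 324 in parental cells.

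The catalytic subunits are *Psmb6* (caspase-like), *Psmb7* (trypsin-like) and *Psmb5* (chymotrypsin-like). *Psmb5* measured 50.1, 46.7 and 55.9 CPM in the parental libraries, while E6.1 had 63.4, 62.1 and 45.5, E6.2 had 47.99, 70.8 and 51.3, E7.1 had 65.6, 53.4 and 63.98 and E7.2 had 60.3, 61.9 and 39.5. These ranges overlap in every clone, with log2 fold changes from 0.08 in E7.2 to 0.26 in E7.1 (adjusted p = 0.861 and 0.485 from edgeR). *Psmb6* measured 77.8, 66.2 and 69.5 CPM in the parental libraries, while E6.1 had 88.8, 86.8 and 78.8, E6.2 had 64.2, 90.3 and 119, E7.1 had 95.8, 95.99 and 83.9 and E7.2 had 77.5, 78.3 and 121. For *Psmb6* the libraries of E6.1 and E7.1 lay above the parental ones, and its highest values were those of E7.2 replicate 3 and E6.2 replicate 3. *Psmb7* measured 231, 189.9 and 237 CPM in the parental libraries, while E6.1 had 258, 269.8 and 249.97, E6.2 had 183, 224 and 278, E7.1 had 336, 311 and 269 and E7.2 had 271, 249 and 243. *Psmb7* in E7.1 was above every parental library (log2 fold change 0.48, SE 0.16, adjusted p = 0.113), as it was in E6.1 (0.24) and E7.2 (0.21).

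Each catalytic subunit has an interferon-inducible counterpart that replaces it in the immunoproteasome, *Psmb9* for *Psmb6*, *Psmb10* for *Psmb7* and *Psmb8* for *Psmb5*. Per kilobase of exon, the constitutive gene was higher in each of the 15 libraries for the 3 pairs. For *Psmb5* over *Psmb8* the ratio was as low as 1.01, in E7.2 replicate 3, where the genes were near equal. Such ratios depend on the annotated exon lengths. The transcript of *Psmb5* also aligns to that of *Gm3375* with 98.9% identity over 796 bases, and read pairs with several alignments were not counted. The ratio of *Psmb6* to *Psmb9* was 4.003 ± 0.745 (SD, n = 3) in parental cells, 5.49 ± 0.684 for E6.1, 6.23 ± 0.480 for E6.2, 3.75 ± 0.708 for E7.1 and 4.05 ± 1.70 for E7.2. For *Psmb7* over *Psmb10* it was 18.04 ± 3.79, 22.4 ± 2.66, 17.7 ± 1.70, 14.4 ± 1.44 and 15.9 ± 2.32 in the same order. The *Psmb5* to *Psmb8* ratio was 1.44 ± 0.218, 1.63 ± 0.266, 1.72 ± 0.320, 1.33 ± 0.152 and 1.23 ± 0.194. The means of all 3 ratios were higher in both E6 clones than in both E7 clones, while single libraries overlapped. Of the counterparts, *Psmb8* (log2 fold change 0.38, adjusted p = 0.0341), *Psmb9* (0.70, 0.0158) and *Psmb10* (0.60, 0.0144) were higher in the E7 than in the E6 clones by edgeR's quasi-likelihood test, and the catalytic genes had estimates of 0.01, 0.06 and 0.20 that did not pass it. The *Psmb8* call was lost in 8 of 15 fits with 1 library left out and without the filter on low counts (adjusted p = 0.0676 from edgeR), and those of *Psmb9* and *Psmb10* in 2 each. The ratios themselves were not tested.

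**Figure D3:**
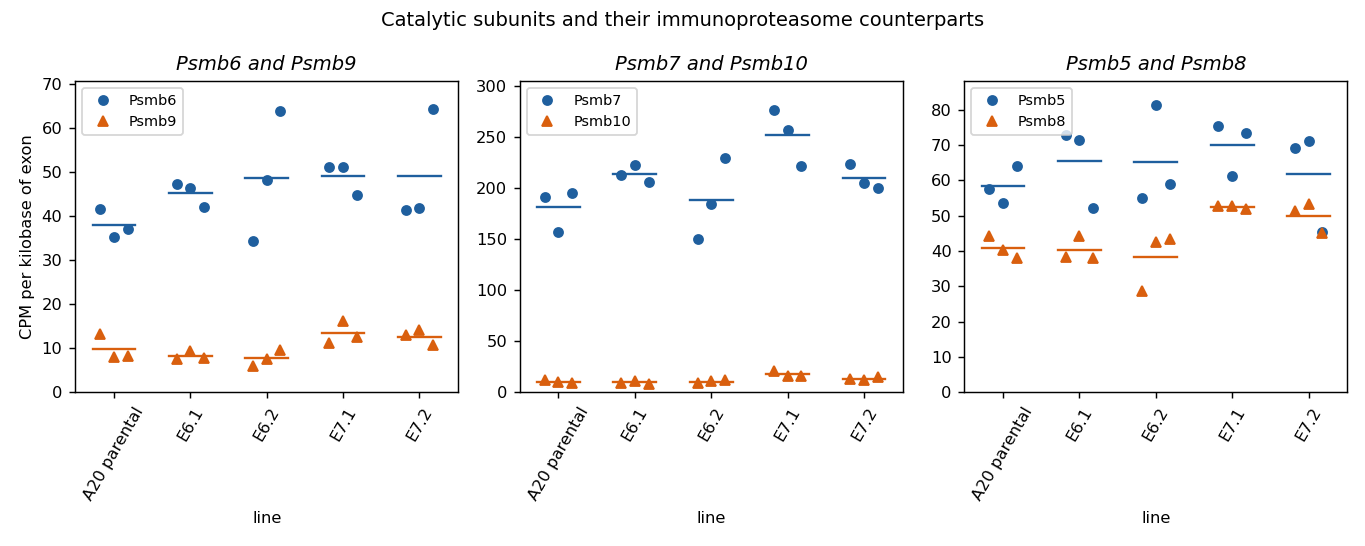
CPM per kilobase of exon (vertical axis) of each constitutive catalytic subunit (circles) and its immunoproteasome counterpart (triangles) in the 3 libraries of each line (horizontal axis), with bars at the means. The constitutive gene lies above its counterpart in every library, by 18.04-fold on average for *Psmb7* in parental cells and by 1.44-fold for *Psmb5*. For *Psmb5* in E7.2 replicate 3 the ratio is 1.01, near equality.

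The ATPase ring of the base unfolds substrates and opens the core. *Psmc4*, one of its 6 subunits (chromosome 7, 28041707 to 28050101, reverse strand, GRCm38), was the gene with the lowest adjusted p in any comparison of a clone with parental cells. *Psmc4* measured 71.7, 105 and 111 CPM in the parental libraries, while E6.1 had 139, 115 and 117, E6.2 had 113, 121 and 94.6, E7.1 had 207, 158 and 157 and E7.2 had 109, 115 and 113. The 3 E7.1 libraries were above all 12 others, and parental replicate 1 was below all others. Its level in E7.1 was 174 ± 28.5 CPM against 95.8 ± 21.1 (SD, n = 3), a log2 fold change of 0.86 (SE 0.17, adjusted p = 0.0328 in the quasi-likelihood test of edgeR). Without parental replicate 1 the log2 fold change was 0.70, and with any 1 of the 15 libraries omitted its range was 0.70 to 0.98. It lost the call in 10 of them, with adjusted p values up to 0.203, and also with a length and GC offset, where the log2 fold change was 0.78 (adjusted p = 0.0634). In the remaining clones (E6.1, E6.2, then E7.2) the log2 fold changes were 0.37, 0.19 and 0.23, and none passed the test. The E6.1 value was 0.19 without parental replicate 1.

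No other ATPase gene was called in a clone. *Psmc1* (0.47 in E7.1, adjusted p = 0.0899 from edgeR) and *Psmc3* (0.43, adjusted p = 0.154) had higher estimates in E7.1, with no overlap with parental libraries, and *Psmc5* had 0.20 there. For *Psmc5* the largest estimate was in E6.1, 0.37, which was 0.17 without parental replicate 1. *Psmc6*, the most abundant ATPase gene per length, measured 258, 290.3 and 344 CPM in parental cells and 255, 220.4 and 220.1 in E7.2, all below, with a log2 fold change of -0.36 (adjusted p = 0.374). *Psmc2* (chromosome 5, 21785283 to 21803787, forward strand) had its lowest levels in parental replicate 1 and the E7 clones. *Psmc2* measured 115, 221 and 260.1 CPM in the parental libraries, while E6.1 had 288, 204 and 245, E6.2 had 258, 309.5 and 234, E7.1 had 188, 150.4 and 153 and E7.2 had 171, 169 and 174. Its E7 libraries lay between 150 and 188 CPM and its E6 libraries between 204 and 310, whereas parental replicate 1 lay below both ranges and the other 2 parental libraries within that of E6.

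*Psmd1* and *Psmd2* encode the large scaffold subunits of the base, where shuttle factors and deubiquitinases dock, and *Psmd4* encodes a ubiquitin receptor. *Psmd2* measured 294, 189 and 204 CPM in the parental libraries, while E6.1 had 214, 299.9 and 220.2, E6.2 had 168, 183 and 241, E7.1 had 475, 397 and 388 and E7.2 had 332, 350.1 and 232. The E7.1 libraries were above all others, and E7.2 overlapped parental replicate 1. Against parental cells the log2 fold change of *Psmd2* was 0.88 in E7.1 (SE 0.22, adjusted p = 0.0611 from edgeR) and 0.41 in E7.2 (adjusted p = 0.421), neither of which passed. *Psmd1* measured 239.97, 164 and 178 CPM in the parental libraries, while E6.1 had 173, 220.2 and 184, E6.2 had 149, 184 and 212, E7.1 had 370.2, 285 and 290.3 and E7.2 had 241, 242 and 165. *Psmd1* in E7.1 was again above every other library, with a log2 fold change of 0.70 (SE 0.20, adjusted p = 0.0822). Without parental replicate 1 the value was 1.11 for *Psmd2* and 0.90 for *Psmd1*, and both were called, as they were without replicate 3 of E6.2 or of E7.2. Each stayed uncalled in 12 of the 15 fits that left out 1 library. Without E7.1 replicate 1 the value was 0.78 for *Psmd2* and 0.57 for *Psmd1* (adjusted p = 0.278 and 0.325 from edgeR).

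The values of the ubiquitin receptor gene *Psmd4* turned on single libraries. *Psmd4* measured 81.1, 90.4 and 94.6 CPM in the parental libraries, while E6.1 had 115, 106 and 103, E6.2 had 88.8, 97.7 and 195, E7.1 had 102, 113 and 98.9 and E7.2 had 101, 105 and 157. Its high values were those of E6.2 replicate 3 and E7.2 replicate 3, and the log2 fold change of 0.52 in E6.2 (adjusted p = 0.39 from edgeR) became 0.09 without the first of these. In E7.2 the estimate of 0.45 became 0.25 without the second.

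The lid removes the ubiquitin chain through *Psmd14*, its deubiquitinase, which the other lid subunits hold in place. *Psmd14* measured 231, 215 and 265 CPM in the parental libraries, while E6.1 had 251, 243 and 269, E6.2 had 168, 253 and 283, E7.1 had 249.9, 222 and 224 and E7.2 had 219.7, 189 and 225. These values overlapped in every clone, and its log2 fold changes lay between -0.17 in E7.2 and 0.10 in E6.1 (adjusted p = 0.666 and 0.987 from edgeR). Of the structural lid genes, *Psmd12* (chromosome 11, 107479484 to 107504362, forward strand), *Psmd13* and *Psmd3* were raised in estimate in E7.1. *Psmd12* measured 155, 116 and 136 CPM in the parental libraries, while E6.1 had 123, 141 and 130.3, E6.2 had 100.3, 129 and 117, E7.1 had 272, 178 and 193 and E7.2 had 152, 139 and 133. E7.1 was above all other libraries, replicate 1 by the widest margin, with a log2 fold change of 0.66 against parental cells (SE 0.17, adjusted p = 0.062). *Psmd13* measured 80.4, 63.7 and 67.5 CPM in the parental libraries, while E6.1 had 72.2, 83.4 and 72.1, E6.2 had 56.02, 75.2 and 65.2, E7.1 had 128, 95.6 and 100.1 and E7.2 had 89.3, 84.6 and 65.8. *Psmd3* measured 77.1, 74.3 and 61.9 CPM in the parental libraries, while E6.1 had 65.5, 76.5 and 64.2, E6.2 had 55.98, 73.99 and 94.5, E7.1 had 111, 92.9 and 98.4 and E7.2 had 83.4, 90.9 and 85.6. For both genes the E7.1 libraries were above the parental ones, with log2 fold changes of 0.61 and 0.50 (adjusted p = 0.0694 and 0.115), while the parental and E6 libraries overlapped.

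Other lid genes differed less. *Psmd11* had the smallest ratio between line means, at 153 to 195 CPM over the 15 libraries, and *Psmd6* and *Psmd7* had log2 fold changes from -0.15 to 0.31 with no call. *Psmd8* measured 192, 214 and 265 CPM in the parental libraries, while E6.1 had 305, 236 and 262, E6.2 had 231, 269 and 461, E7.1 had 176, 222 and 199.5 and E7.2 had 219, 216 and 375. As for *Psmd4*, E6.2 replicate 3 and E7.2 replicate 3 were the highest, and the estimate of 0.52 in E6.2 became 0.18 without E6.2 replicate 3.

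The chaperones *Psmd5*, *Psmd9* and *Psmd10* help to assemble the base and are not part of the finished particle. *Psmd5* measured 105, 82.5 and 95.6 CPM in parental cells and 138, 119 and 109.98 in E7.1, without overlap (log2 fold change 0.37, adjusted p = 0.164 from edgeR). *Psmd9*, at 16.6 to 26.2 CPM over all libraries, had its largest log2 fold change in E6.1 (0.36, adjusted p = 0.595), and *Psmd10* ranged from -0.10 in E6.2 to 0.27 in E7.1.

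The activators bind the core in place of the regulatory particle. *Psme1* and *Psme2* encode the interferon-inducible ring, *Psme3* its nuclear homolog and *Psme4* a large single-chain activator. *Psme2* measured 105, 76.4 and 96.3 CPM in the parental libraries, while E6.1 had 96.7, 103 and 93.2, E6.2 had 77.7, 94.5 and 114, E7.1 had 136, 127 and 114 and E7.2 had 111, 105 and 122. The libraries of both E7 clones lay above the parental ones, the lowest of E7.2 narrowly, with log2 fold changes of 0.44 for E7.1 (adjusted p = 0.128 from edgeR) and 0.29 for E7.2 (adjusted p = 0.423). *Psme1* measured 225, 189.8 and 241 CPM in the parental libraries, while E6.1 had 240.3, 248 and 233, E6.2 had 171, 207 and 354, E7.1 had 222, 269 and 253 and E7.2 had 259.6, 248 and 407. Replicate 3 of E6.2 and E7.2 stood out, and the *Psme1* estimate of 0.48 in E7.2 became 0.25 without the latter.

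*Psme2b* (chromosome 11, 48945354 to 48946190, reverse strand), which has a single exon of 837 bases, was the second gene called in E7.1. *Psme2b* measured 29.7, 25.2 and 27.05 CPM in the parental libraries, while E6.1 had 28.04, 33.7 and 27.3, E6.2 had 24.6, 31.2 and 31.8, E7.1 had 44.6, 39.2 and 40.4 and E7.2 had 33.2, 35.3 and 36.9. The E7.1 libraries were above all others, and those of E7.2 were above the parental ones too, giving log2 fold changes of 0.60 (SE 0.14, adjusted p = 0.049 in the quasi-likelihood test of edgeR) and 0.36 (adjusted p = 0.299). The call was lost in 11 of the 15 fits that left out 1 library. It was also lost without the filter on low counts (adjusted p = 0.0896 from edgeR) and with only the lines compared (adjusted p = 0.0523 from edgeR). Neither a replicate block nor the length and GC offset kept it. The transcript of *Psme2b* aligns to that of *Psme2* with 99.4% identity over 794 bases. Since read pairs with several alignments were not counted, the split of reads between the pair is uncertain.

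*Psme4* had a negative estimate in E6.1. *Psme4* measured 301, 197 and 222 CPM in the parental libraries, while E6.1 had 177, 179 and 168, E6.2 had 188, 202 and 213, E7.1 had 280.3, 228 and 226 and E7.2 had 193, 188 and 218. All E6.1 libraries were below the parental ones (log2 fold change -0.46, SE 0.15, adjusted p = 0.46 from edgeR), and the value became -0.27 without parental replicate 1, the highest library of all. *Psme3*, at 361 to 525 CPM, had log2 fold changes between -0.07 and 0.20, and those of the inhibitor *Psmf1* were between 0.06 and 0.25. *Psmc3ip*, which is not a subunit, measured 16.5, 14.6 and 15.9 CPM in parental cells and 9.29, 13.2 and 10.4 in E6.2, all below (log2 fold change -0.52, adjusted p = 0.457).

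A contrast of the mean of the 4 clones with parental cells asks for a shift shared by the clones. It called 0 of the 41 genes by edgeR's quasi-likelihood test, against 0.503% of all genes (0.0432% higher, 0.46% lower). At an unadjusted p under 0.05, 8 were higher and 0 lower, beside 3.78% and 6.12%, and DESeq2's Wald test called 1, *Psmb4* (2.44% against 1.28%). The median log2 fold change was 0.18 (all genes 0.01), and 36 of 41 estimates were above 0 (87.8% against 51.4% of all genes). An F-test of any difference among the 5 lines called *Psmc4, Psmd2, Psmd12* and *Psme2b*, which is 4 of 41 (9.76%) against 6.28% of all genes. With 1 library left out the call of *Psmd12* was lost in 4 of 15 fits, that of *Psmc4* in 9 and those of *Psmd2* and *Psme2b* in 11 each, and a replicate block left *Psmd12* alone (2.44% against 5.23%).

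The contrast of the E7 with the E6 clones does not use the parental means, although those libraries enter the estimate of the spread. It called 7 of the 41 genes (17.1%), beside 12.1% of all tested genes, with 6 higher (14.6% against 6.21%) and 1 lower (2.44% against 5.85%) in the E7 clones. With 2 clones on each side, the p values measure the spread between libraries and not between clones, and the mutated exon and other differences between the clones cannot be told apart. The B-cell genes *Cd79a* (1.08, adjusted p = 0.0037 from edgeR) and *Ms4a1* (0.44, adjusted p = 0.0407) were also higher in the E7 clones, and their part in the result was not tested. Of the 7 tested B-cell markers only 4 had estimates above 0 in this contrast, with a median of 0.13 beside -0.03 over all genes. The higher proteasome genes were the base scaffold genes *Psmd2* and *Psmd1*, the lid genes *Psmd12, Psmd13* and *Psmd3*, and *Psme2b*. The lower proteasome gene was the ATPase gene *Psmc2*. For each of these 7 proteasome genes, both E7 clone means lay on the same side of both E6 clone means. For *Psmc2* only did all 6 E7 libraries lie apart from all 6 E6 libraries. For *Psmd1, Psmd2, Psmd12* and *Psmd13* the E7.1 libraries lay above all others, while those of E7.2 overlapped both E6.1 and parental cells. Of the 41 log2 fold changes, 29 were above 0 (70.7% against 46.3% of all genes). Over all genes, 1.81% had every E7 library above and 1.75% every E7 library below the E6 libraries.

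**Figure D4:**
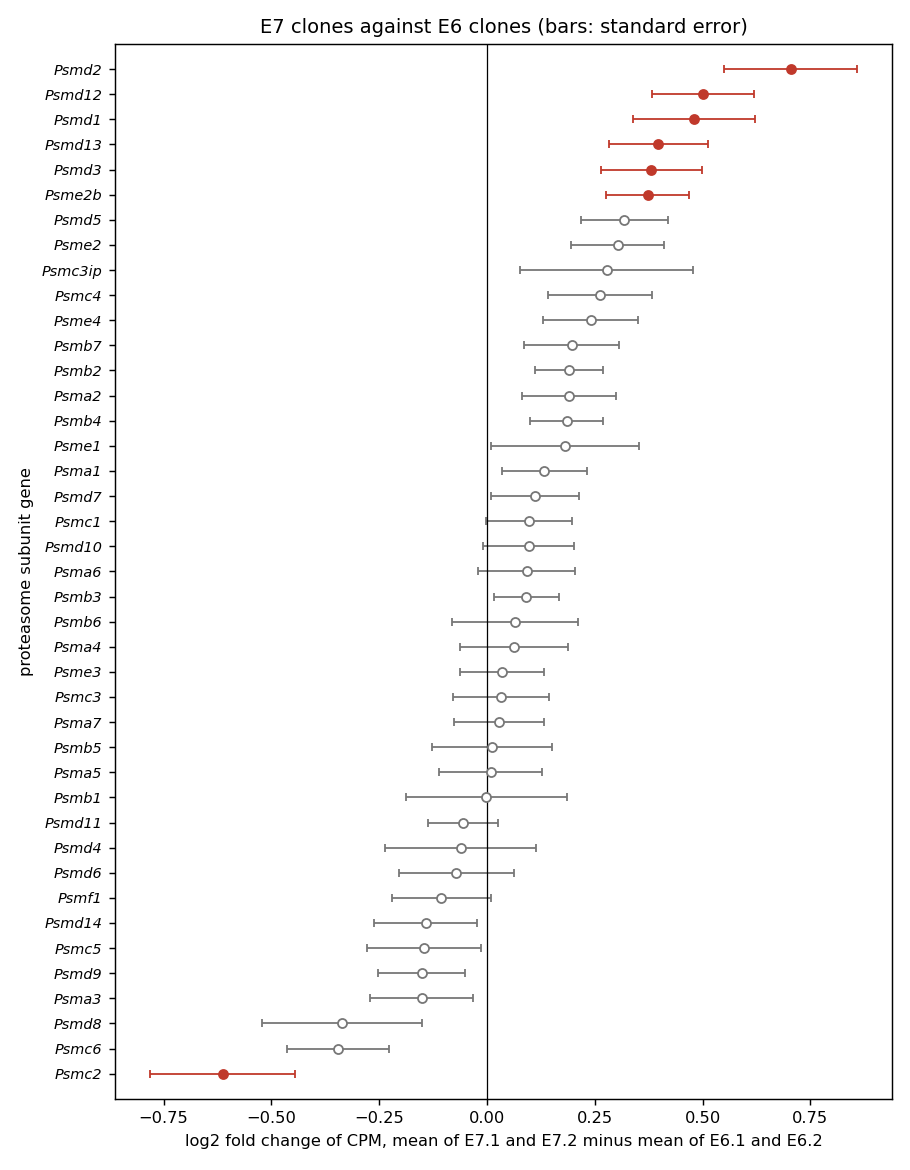
Log2 fold change of the mean of E7.1 and E7.2 over the mean of E6.1 and E6.2 (horizontal axis) for the 41 tested genes (vertical axis, in order), with bars for the standard error. Filled points passed an adjusted p of 0.05 in edgeR's quasi-likelihood test, 6 of them higher in the E7 clones, led by *Psmd2* at 0.70, and 1 lower, *Psmc2* at -0.61.

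*Psmd2* had the largest difference. Its line means were 420.1 ± 47.8 and 305 ± 63.5 CPM in the E7 clones and 245 ± 48.05 and 197 ± 38.2 in the E6 clones (SD, n = 3), a log2 fold change of 0.70 (SE 0.15, adjusted p = 0.0145 from edgeR). Only E7.2 replicate 3, at 232 CPM, fell within the range of the E6 libraries. *Psmd12* followed with 0.50 (SE 0.12, adjusted p = 0.019), *Psmd1* with 0.48 (adjusted p = 0.0426), *Psmd13* with 0.40 (0.04), *Psmd3* with 0.38 (0.049) and *Psme2b* with 0.37 (0.0261). For *Psmc2* the estimate was -0.61 (SE 0.17, adjusted p = 0.0334). *Psmc6* pointed the same way without passing (-0.34, adjusted p = 0.0696), and *Psmd5* (0.32, 0.0548) and *Psme2* (0.30, 0.0778) pointed up.

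Of these calls, *Psmd2* and *Psmd12* were lost least often when single libraries were left out, in 2 and 3 of 15 fits, and *Psme2b* was lost in 6, *Psmc2* in 9, *Psmd13* in 9, *Psmd1* in 11 and *Psmd3* in 12. The count over the family was 0 without E6.1 replicate 1 or 3, 1 without E7.2 replicate 1, 2 without E7.1 replicate 1 or 3 or E7.2 replicate 2, and 4 without parental replicate 2 or 3, E6.2 replicate 1 or 2 or E7.1 replicate 2. It was 11 without E6.2 replicate 3 (26.8%, equal to the share of all genes), and 13 (31.7%, beside 33.1% of all genes) without this library and E7.2 replicate 3. No estimate among the 7 changed sign in any of these fits. With a replicate block 5 were called (12.2% against 10.1%), and *Psmd1* and *Psmd3* were not (log2 fold changes 0.47 and 0.38, adjusted p = 0.0602 and 0.0657 from edgeR).

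**Figure D5:**
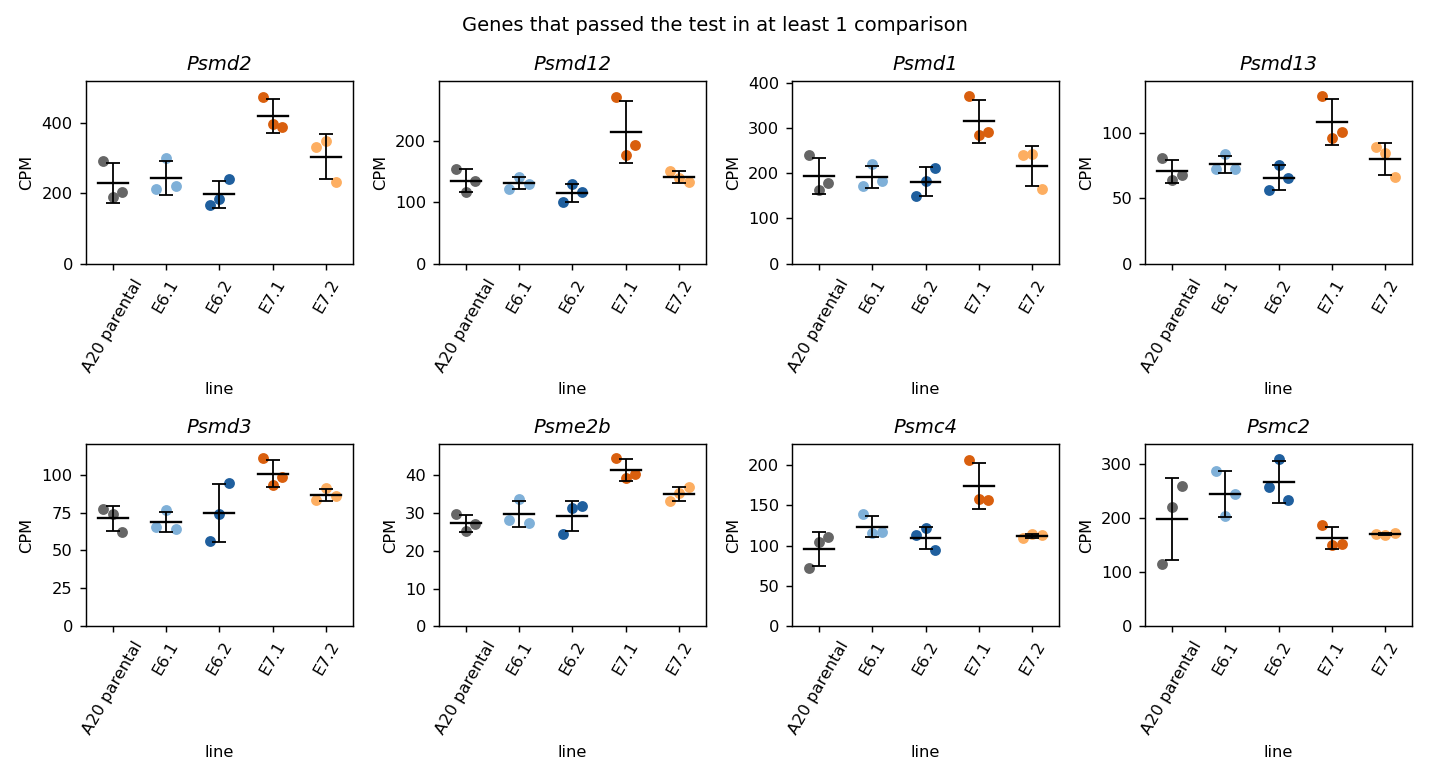
CPM (vertical axis, from 0) of the 8 genes called in at least 1 comparison, in the 3 libraries of each line (points) with mean and SD (bars). For 6 of the 8 the E7.1 libraries lie above all others (*Psmd2, Psmd12, Psmd1, Psmd13, Psme2b* and *Psmc4*), and *Psmc2* is lowest in the E7 clones apart from parental replicate 1.

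The sequences before the start sites of *Psmd2*, *Psmc2* and *Psmc4* are printed because these genes had the largest difference between E7 and E6 clones in each direction and the largest call in E7.1. They come from RefSeq on GRCm38.p6 and run 5′ to 3′ on the gene's strand up to the start site, or up to the first annotated exon where that comes earlier. Capitals mark matches, on either strand, to 5 motifs. The box bound by the nuclear factor Y complex was searched as CCAAT. For the antioxidant response element, to which Nfe2l1 binds, only the letters TGACTCA were searched, and other forms of the element were not. For forkhead factors the letters were GTAAACA. For ETS factors they were CCGGAAG. The E-box was searched as CACGTG, and no 2 of these motifs overlap in the windows printed.
Psmd2 (chr16:20651402-20651651, forward strand): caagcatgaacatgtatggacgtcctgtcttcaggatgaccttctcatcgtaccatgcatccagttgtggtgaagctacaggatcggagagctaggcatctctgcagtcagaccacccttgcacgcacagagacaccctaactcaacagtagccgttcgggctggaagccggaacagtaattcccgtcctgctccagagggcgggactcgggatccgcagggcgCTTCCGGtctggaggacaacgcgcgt
Psmc2 (chr5:21785025-21785274, forward strand): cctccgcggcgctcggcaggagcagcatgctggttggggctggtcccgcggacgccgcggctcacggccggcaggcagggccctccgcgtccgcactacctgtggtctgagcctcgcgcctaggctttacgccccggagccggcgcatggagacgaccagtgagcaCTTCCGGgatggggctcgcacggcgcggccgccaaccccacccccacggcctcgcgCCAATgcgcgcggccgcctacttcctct
Psmc4 (chr7:28050102-28050342, reverse strand): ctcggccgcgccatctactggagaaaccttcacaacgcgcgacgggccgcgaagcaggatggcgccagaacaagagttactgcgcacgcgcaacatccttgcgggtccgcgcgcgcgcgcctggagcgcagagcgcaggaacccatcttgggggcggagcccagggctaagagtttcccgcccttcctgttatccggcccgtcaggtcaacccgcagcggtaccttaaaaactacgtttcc
The *Psmd2* window holds 1 ETS match on the opposite strand (CTTCCGG), the *Psmc2* window 1 such match and 1 CCAAT box, and the *Psmc4* window none of the 5 motifs.

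Promoter windows of 250 bases were found for 36 of the 43 genes, 39 windows in all. An ETS match stood in 13 of the 39 (33.3%), beside 6.91% of the 32851 windows of the same length over all genes, and a CCAAT box in 14 (35.9% against 33.8%). The E-box was in 3 windows (7.69% against 6.02%), the letters TGACTCA in 1 (2.56% against 4.46%), that of *Psmd9*, and the forkhead motif in 0 (0% against 3.17%). A match is a run of letters and not a bound site, and the absence of one says only that these letters are not in the window.

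Genes that work with the proteasome were compared in the same way. Of 8 further subunits and core assembly factors, 1 was called between E7 and E6 clones, *Psmg1*, an assembly chaperone of the alpha ring (0.33, adjusted p = 0.0448 from edgeR), a share near the 12.1% of all genes. The *Psmg1* call was lost in 10 of 15 fits with 1 library left out, with a replicate block (adjusted p = 0.0603 from edgeR), with the length and GC offset (0.0971) and without the filter (0.0968). The maturation factor *Pomp* measured 116, 83.4 and 83.9 CPM in E7.1 against 66.7, 49.9 and 61.7 in parental cells, above without overlap (0.67, adjusted p = 0.0818); it was chosen after its values were seen. None of 11 proteasome-bound ubiquitin factors was called, the largest estimate being that of the deubiquitinase gene *Uchl5* in E7.1 (0.57, adjusted p = 0.211). Of 6 ubiquitin and E1 genes, *Uba1*, the main ubiquitin-activating enzyme, was higher in the E7 clones (0.47, adjusted p = 0.028), a call lost in 8 of 15 fits with 1 library left out.

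Of 15 tested regulators of proteasome genes, 1 was called higher and 2 lower in the E7 than in the E6 clones, beside 6.21% and 5.85% of all genes. *Nfe2l1*, the factor that raises proteasome genes when proteasome activity falls, measured 250.3, 436 and 396 CPM in parental cells, while E6.1 had 433, 388 and 418, E6.2 had 426, 489 and 433, E7.1 had 146, 268 and 245 and E7.2 had 319, 344 and 423. It was lower in the E7 clones (-0.61, adjusted p = 0.0299 from edgeR), with all E7.1 libraries under those of the other clones and E7.2 overlapping E6. Its small partner *Mafg* was lower too (-0.41, adjusted p = 0.029), and *Vcp*, the unfoldase that releases Nfe2l1 from the endoplasmic reticulum, was higher (0.52, adjusted p = 0.0322). With 1 library left out these calls were lost in 8 (*Nfe2l1*), 7 (*Mafg*) and 7 (*Vcp*) of 15 fits, and that of *Mafg* also without the filter on low counts (adjusted p = 0.0583 from edgeR). In no clone did a gene of these 4 lists pass the test against parental cells.

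Counts of some genes are less certain than others. At 95% identity over at least 100 bases, 17 of the 43 transcripts matched a transcript of another annotated gene. The longest match was that of *Psmd2* to *Gm5422* (96.4% identity over 2726 bases), which held 65 to 383 counts per library. Exons of 11 of the 43 genes overlap those of another gene, among them *Psmd1* with *Htr2b* over part of 553 bases and *Psmd13* with *Sirt3* over 152 bases. Counting was not strand-specific, and read pairs assigned to both genes there were left out.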

How the data were processed

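Total RNA was sequenced in 15 libraries, and the selection of RNA is not given in the sources used here. Per the labels and the file headers, the authors aligned paired reads with HISAT (version not given in the sources used here) to GRCm38 with spike-in sequences and counted read pairs per gene with featureCounts 1.5.0, unstranded. Pairs with several alignments or several genes were left out, and the deposited values are raw counts per gene and library. The 92 spike-in entries had a count of 0 and were not used.

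From these counts, genes were filtered with filterByExpr, scaled by TMM and fitted with edgeR 4.0.16 (R 4.3.3, limma 3.58.1) over the 15 libraries, with cell line as sole term. The quasi-likelihood test was adjusted by Benjamini-Hochberg over all 13904 tested genes, and called means an adjusted p under 0.05. P-values measure the spread between libraries of separate passages. CPM are TMM-scaled, standard errors are on the log2 scale, and CPM per kilobase divides by exon length from the count tables. Positions are from GENCODE vM21 and promoters from RefSeq on GRCm38.p6, near-identical transcripts were found with blastn 2.17.0, and the test was tried on simulated data. Alternatives were DESeq2 1.42.0, its size factors, no filter, other edgeR tests, only the lines compared, a replicate block, an offset for length and GC content, and leaving out libraries.

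Genes named are those called, the 3 with the largest change per clone, genes fixed by role, the extremes of each subcomplex by level, those failing the filter, *Foxp1*, and called or largest genes of related lists. Others were chosen after their values were seen. The members and lists were chosen with earlier results of these data known. One marker on these lists is not reported here.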

Additional observations from a re-analysis of the deposited data

Results flagged for a closer look

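The 2 pairs of clones differed under the same contrast for 7 proteasome genes, by the test of E7 against E6 clones in edgeR's quasi-likelihood fit. Higher in the E7 clones on the log2 scale were *Psmd2* by 0.704, *Psmd12* by 0.5, *Psmd1* by 0.481, *Psmd13* by 0.397, *Psmd3* by 0.381 and *Psme2b* by 0.373. *Psmc2* differed by -0.612. The difference was tested between libraries and not between clones. The 7 genes are 17.1% of those tested, beside 12.1% of all genes (31.7% beside 33.1% with E6.2 replicate 3 and E7.2 replicate 3 omitted). The calls of *Psmd1* and *Psmd3* were lost in 11 and 12 of 15 fits with 1 library left out and with a replicate block. Those of *Psmc2* and *Psmd13* were lost in 9 of these 15 fits each, that of *Psme2b* in 6, *Psmd12* in 3 and *Psmd2* in 2. Without the filter on low counts *Psmd3*, *Psmd13* and *Psme2b* were not called, and with the length and GC offset *Psmd3* and *Psmd13* were not.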

How the results depend on the processing

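Medians and counts are over the 41 tested proteasome genes, and the cause of each move was not tested. Without the filter on low counts the count in E7.1 was again 2 (4.65% against 1.38% of all genes), with *Psmd2* called and *Psme2b* not. The count in E7.1 (2) was 13 by DESeq2 (31.7% of members against 8.32% of all genes), 6 by edgeR's likelihood ratio test, 0 with only the lines compared, 0 with the length and GC offset and 17 without replicate 3 of E6.2 and E7.2. The count between E7 and E6 clones (7) was 12 by DESeq2 (29.3% against 19.3%), 4 without a filter on low counts (9.3% against 6.17%) and 13 without those libraries (31.7% against 33.1%). The count for any difference among lines (4) was 13 by DESeq2 (31.7% against 22.5%) and 17 without those libraries (41.5% against 28.6%). DESeq2 called 1 gene in E7.2 and 1 for the mean of the clones. The median in E6.2 was -0.0857 without those libraries.

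Leaving out single libraries gave counts of 0 to 14 in E7.1, 0 to 11 between E7 and E6 clones, 0 to 12 for any difference, and 0 to 0 in E6.1, E6.2, E7.2 and the mean of the clones. The medians ran from 0.11 to 0.24 for E6.1, -0.07 to 0.16 for E6.2, 0.26 to 0.36 for E7.1, 0.08 to 0.18 for E7.2, 0.14 to 0.22 for the mean and 0.05 to 0.16 between E7 and E6 clones. The E6.2 median thus changed sign, and no other of these medians did.

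Same-numbered libraries deviated together, with a correlation over 0.1, in 4 of 12 pairs of a clone with parental cells and in 6 of 18 pairs of 2 clones. All 3 pairs of E6.2 with E7.2 were among them (0.214, 0.295 and 0.451), and no other 2 lines had all 3, so the numbers do not pair the lines as a whole. Pairs of 2 clones with different numbers passed 0.1 in 7 of 36 cases. Among these were E6.2 replicate 2 with E7.2 replicate 1 (0.355) and E6.2 replicate 1 with E7.2 replicate 2 (0.200). With the replicate block the counts were 1 in E7.1 (*Psmc4*), 5 between E7 and E6 clones and 1 for any difference. With the length and GC offset and the replicate block together they were 0 in E7.1, 4 between E7 and E6 clones and 2 for any difference.

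Restricting the fit to the lines compared was not run for the mean and any-difference tests, which use all lines. A single clone per line, 3 libraries each and the libraries that stood apart limit every comparison, and depth limits *Psma8* and *Psmb11*.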
